A study of Brassica napus with 12 samples.

Results

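The comparison described here set leaves of *Brassica napus* sprayed with ethanol and the wetting agent UN65 against leaves sprayed with water. It set against each other 4 of the 12 labelled libraries of the series, 2 from ethanol and UN65 plants (replicates 41 and 42) and 2 from water plants (replicates 41 and 42), chosen by their labels alone. All plants were 21 days old, of the line RV31, a derivative of the spring oilseed cultivar Westar, grown in continuous white light at 70 µmol. The ethanol and UN65 plants received 4 mL of 0.01% ethanol with 0.01% UN65, the water plants received 4 mL of distilled water, and leaves of both were taken 4 h later. The same ethanol and UN65 solution carried the 100 µM methyl jasmonate given to another sprayed group, so the comparison asks what the carrier alone does to leaf transcripts relative to water. The other groups, also of 2 libraries each, were plants under UV-B, their white light controls without UV-B and plants fed on by larvae of *Plutella xylostella* (herbivory). All 12 libraries entered the filter, the scaling and the estimate of spread. The study's methods state that each sprayed plant stood under its own cover in dimmer white light until harvest. The series' design text calls replicates biological, while the methods pool RNA of independent replicates. Whether libraries 41 and 42 came from separate plants is not stated for them. The p-values therefore measure the spread between libraries, and how much of it is biological was not tested. Of 101040 loci in the table, 49701 reached 1 FPKM (fragments per length of transcript and per number of mapped fragments) in at least 2 of the 12 libraries and were tested.

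*B. napus* is an allotetraploid that carries an A genome and a C genome, so most genes have 1 or more copies on each, called homoeologues. Loci are named by their chromosome, as in BnaA09g02840D for a locus on A09. The gene functions below are those of the Arabidopsis gene that the deposited tables match to each locus. Jasmonate is the hormone of wounding and chewing herbivores: plastid lipids are converted to jasmonate by lipoxygenase 2 (LOX2), allene oxide synthase (AOS) and their partners, and the hormone then removes JAZ repressors, whose own genes are rapid targets. Crucifer leaves respond to it with glucosinolates, their mustard oil precursors, and with the β-glucosidases, lectins and protease inhibitors that accompany them. Ethanol taken up by leaves is oxidised by alcohol dehydrogenase and then by aldehyde dehydrogenases.

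The 4 libraries were leaf libraries by their markers. The summed level of the leaf markers (Rubisco small subunits, Rubisco activase and LHCB genes) was 32277 and 33626 FPKM in ethanol and UN65 leaves against 61593 and 26160 FPKM in water leaves, while 6 of 7 root markers and 5 of 7 seed and flower markers stayed under 1 FPKM in all 4. Dividing cell markers summed to 63.1 and 73.6 FPKM in ethanol and UN65 leaves and to 36.3 and 60.3 FPKM in water leaves. Between 42025 and 43385 loci reached 1 FPKM in each of the 4 libraries. Across loci, the correlation of log2 levels was 0.93 between the ethanol and UN65 replicates, 0.90 between the water replicates and 0.89 to 0.93 between groups, so the most alike replicates were no more alike than the most alike libraries of different groups. The number of reads is unknown. Steps in the lowest values give ethanol and UN65 replicate 42 a depth of 0.893 times water replicate 41 and 0.738 times water replicate 42, and no such steps were found in ethanol and UN65 replicate 41. In bulk leaf RNA, fewer cells of a type and less RNA per cell cannot be told apart.

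Only 2 loci passed the test (limma, adjusted p under 0.05 and at least 2-fold), 0.00402% of those tested, with 1 higher (0.00201%) and 1 lower (0.00201%). BnaA09g02840D, a match to ribosomal protein S27 (A09, 1439606 to 1440322), stood at 6.07 and 8.87 FPKM in ethanol and UN65 leaves and was listed at 0 in both water libraries. It rose with a fitted difference of 3.06 ± 0.28 (SE) on the log2(FPKM + 1) scale and an adjusted p of 0.0461 by limma. The call was lost under 9 other settings, where adjusted p by limma lay between 0.0589 and 0.484, and also with loci under 200 bases left out. The 9 included leaving out any 1 of the 4 libraries and the fit of the 2 groups alone, which gave 0.0674. BnaC05g00360D (C05, 161152 to 161289), a locus of 138 bases with no annotation, was listed at 0 in both ethanol and UN65 libraries against 457 and 203 FPKM in water libraries. It was also listed at 0 in the other 8 libraries, so the water pair stood apart from everything else, and its fitted difference was -8.26 ± 0.33 with an adjusted p of 6.9e-05 by limma. With only the 3 sprayed groups fitted its adjusted p was 0.0622.

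The next smallest p values, at an adjusted p of 0.106 by limma, again belonged mostly to A09. DXR (BnaA09g06230D), of the plastid isoprenoid pathway, had 20.7 and 16.4 FPKM in ethanol and UN65 leaves, and BXL1 (BnaA09g03310D), a cell wall xylosidase, had 3.75 and 3.34 FPKM, and both were listed at 0 in both water libraries. FSD3 (BnaA09g05370D), a plastid iron superoxide dismutase, had 7.25 and 9.58 FPKM in ethanol and UN65 leaves against 0.7 and 0.69 FPKM in water leaves, with an adjusted p of 0.124. A pair of C04 loci, BnaC04g41620D and BnaC04g55270D, had the same values in every one of the 4 libraries, 0 in ethanol and UN65 leaves against 3.44 and 2.46 FPKM in water leaves. How reads were assigned to this pair was not tested.

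Short loci take extreme values more often. Of the 285 tested loci under 200 bases, 31 (10.9%) were listed at 0 in some of the 12 libraries and above 100 FPKM in another, against 86 of 49416 longer loci (0.174%). BnaC04g30070D (C04, 31829537 to 31829714, 178 bases, no annotation) had the same pattern in the 4 libraries as the called locus on C05. It had 0 and 0 FPKM in ethanol and UN65 leaves against 181 and 92.3 FPKM in water leaves, but its adjusted p was 0.124 by limma. In UV-B replicate 41 it had 12.2 FPKM, where the C05 locus was listed at 0. BnaCnng58020D (123 bases, unplaced) was listed at 0 in both ethanol and UN65 libraries against 21.1 and 24.6 FPKM in water libraries. BnaA02g03950D (A02, 129 bases) had the opposite pattern, with 11.2 and 41.1 FPKM in ethanol and UN65 leaves and 0 in both water libraries. With loci under 200 bases left out, a choice made after the data were seen, no locus passed.

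With so few calls, the loci at the outer edge of the comparison were described by an unadjusted p under 0.05 and at least a 2-fold difference, which is not a call. These were 936 loci (1.88%), 696 higher with ethanol and UN65 (1.4%) and 240 lower (0.483%). Without water replicate 41 the split turned to 524 higher and 681 lower. The 936 loci were not spread evenly over the genome. The upper end of chromosome A09 held 353 of the 696 higher loci among its 441 tested loci, and a further 55 lay among 302 loci that belong to A09 but have no position on it. Of the 240 lower loci, 61 were copies on C09 of the genes in that A09 stretch. The remaining placed loci of the genome, 39414 in number, held 199 higher loci (0.505%) and 113 lower loci (0.287%). The whole of C09 held 84 lower loci among 2442 tested, so some of the 113 lie on C09 too.

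**Figure D1:**
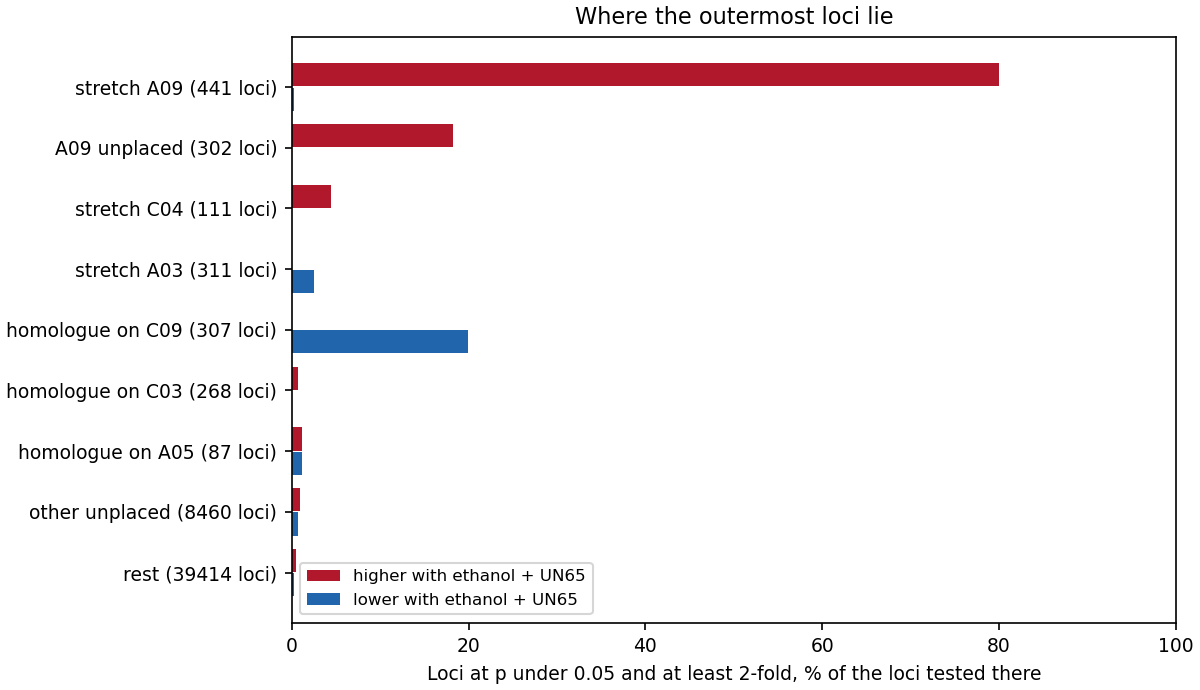
Share of tested loci that reached an unadjusted p under 0.05 and at least a 2-fold difference (x axis, percent of the loci tested in each place), higher with ethanol and UN65 in red and lower in blue, by place (y axis, with the number of tested loci). The A09 stretch stands highest, with 353 of 441 loci, the C09 copies of its genes stand at 19.9% lower, and the rest of the genome stands at 0.505% and 0.287%.

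Running along each chromosome in windows of 51 tested loci, the median difference reached 2-fold in 3 stretches. Loci were placed in a stretch by this difference, so their own difference is a description. The largest covered 441 tested loci of A09 (1307 to 3841942, BnaA09g00010D to BnaA09g07910D), with a median log2 difference of 2.33. In 399 of the 441 loci (90.5%), both ethanol and UN65 libraries exceeded both water libraries, against 15.6% of all tested loci. The median difference was 1.43 in the last window inside the stretch and 0.38 in the next window outside it.

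Each library was then set against the median of all 12 libraries at each locus. Over the A09 stretch the ethanol and UN65 libraries lay at 0.15 and 0.20 log2 units, close to the herbivory, UV-B and white light libraries, which lay between 0.18 and 0.27. The water libraries lay at -2.07 and -1.81. Methyl jasmonate replicate 41 was as low as they were, at -1.81, and its replicate 42 lay between, at -0.31. The libraries that stood apart on A09 were therefore both water libraries and 1 methyl jasmonate library, and the ethanol and UN65 libraries were among those at the common level. The low run began at the first tested locus of A09 in both water libraries and ended at 3706604, at the same locus (BnaA09g07510D) in both. Over the first 51 loci, up to 537515, water replicate 42 was less low, at -0.80 against -2.54 in water replicate 41.

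**Figure D2:**
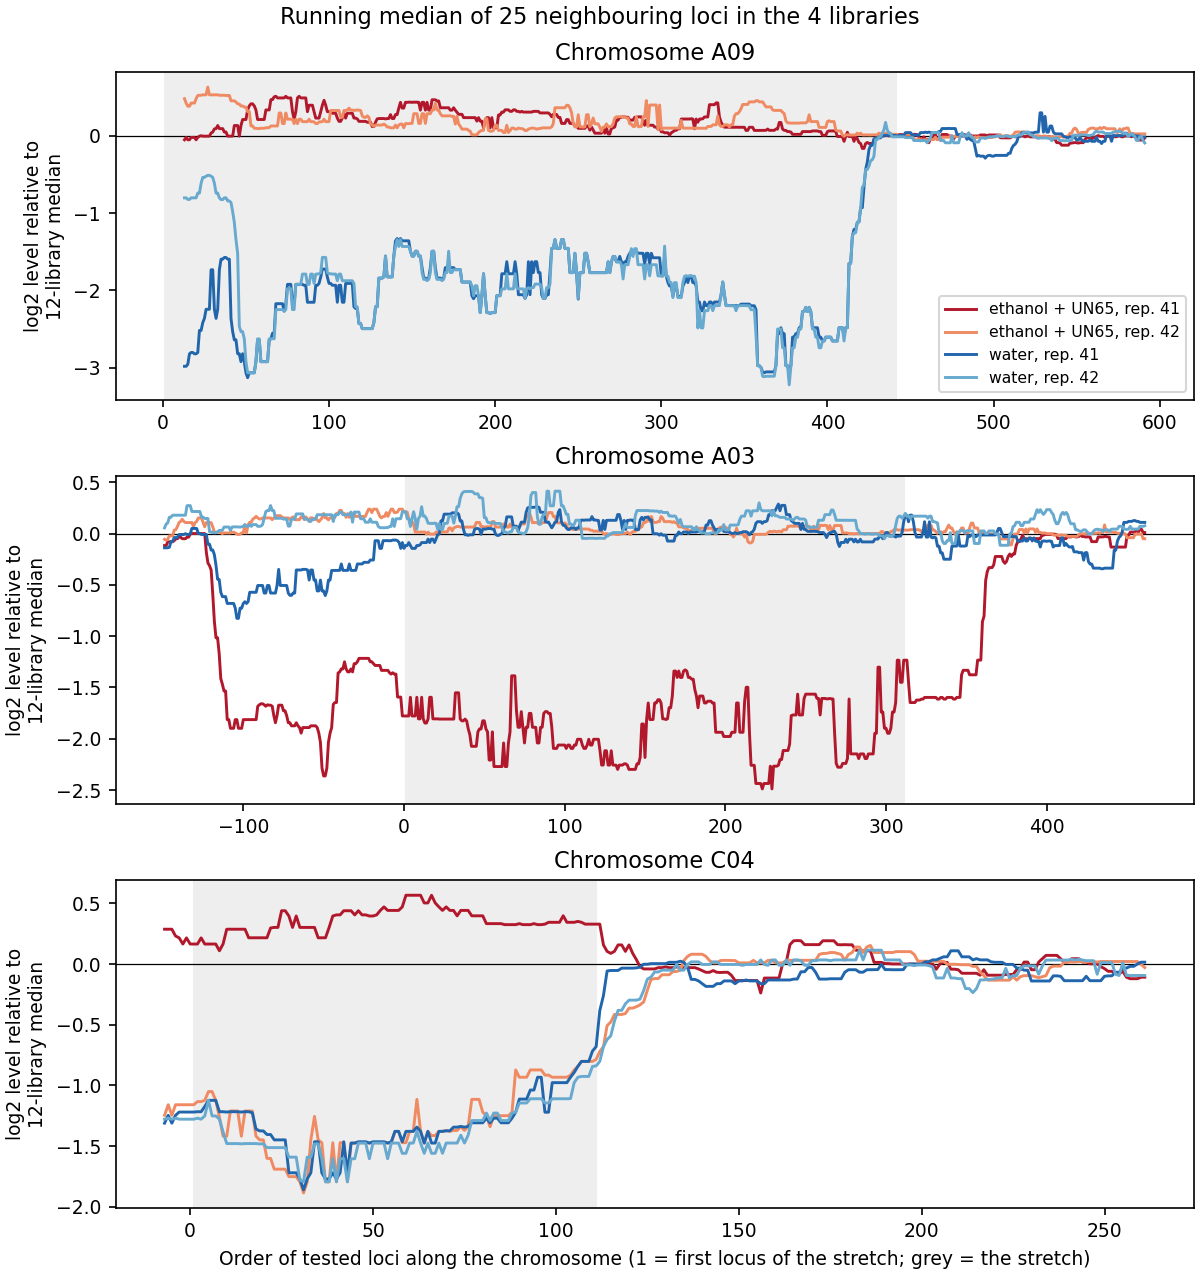
Running median over 25 neighbouring loci of the log2 level relative to the 12-library median (y axis) by order of tested loci (x axis, 1 is the first locus of the stretch, grey marks the stretch) on A09, A03 and C04, for the 2 ethanol and UN65 libraries (red tones) and the 2 water libraries (blue tones). Both water libraries are low on A09, ethanol and UN65 replicate 41 alone is low within the A03 stretch, and ethanol and UN65 replicate 41 alone is at the common level on C04.

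Among the 308 loci of the A09 stretch that reached 5 FPKM in some library, 21 and 16 were under 1 FPKM in the ethanol and UN65 libraries, against 270 and 245 in the water libraries. In the water libraries 162 and 182 of them were listed at 0. Highly transcribed photosynthesis genes of the stretch showed this most plainly. The antenna protein gene LHCB2.3 (BnaA09g02120D, A09, 1043223 to 1044364) stood at 1436 and 2456 FPKM in ethanol and UN65 leaves and at 5.55 and 0.597 FPKM in water leaves. PSAN (BnaA09g06690D), a photosystem I subunit at the side of the electron donor plastocyanin, had 1070 and 953 FPKM in ethanol and UN65 leaves against 1.73 and 0.487 FPKM in water leaves. PETC (BnaA09g01470D), the Rieske protein of the cytochrome b6f complex, had 383 and 304 FPKM in ethanol and UN65 leaves against 0.699 and 0.197 FPKM in water leaves. None of these 3 passed adjustment in the fit of all libraries, where adjusted p values by limma were 0.422, 0.381 and 0.425.

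Other loci of A09 with large differences held very different functions. ATHM2 (BnaA09g01610D), a plastid thioredoxin, had 177 and 201 FPKM in ethanol and UN65 leaves and 0.234 and 0 FPKM in water leaves. XTH9 (BnaA09g01390D), a cell wall xyloglucan endotransglucosylase, had 132 and 92.0 FPKM in ethanol and UN65 leaves against 0.293 and 0 FPKM in water leaves. GSH2 (BnaA09g03700D), glutathione synthetase, had 99.2 and 80.5 FPKM in ethanol and UN65 leaves against 0.0876 and 0.26 FPKM in water leaves. A pectin methylesterase inhibitor (BnaA09g06030D) had 91.4 and 62.1 FPKM in ethanol and UN65 leaves against 0.12 and 0.101 FPKM in water leaves. In each of them the lower ethanol and UN65 library exceeded the higher water library by far more than the 2 replicates of either group differed.

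The dormancy and auxin associated gene BnaA09g01040D and RPL18 (BnaA09g03890D), a cytosolic ribosomal protein, were listed at 0 in both water libraries, against 69.9 and 58.4 FPKM and 56.8 and 69.0 FPKM in ethanol and UN65 leaves. Groups did not overlap in 15 of 15 ribosomal protein loci of the stretch and 17 of 18 kinase loci. The same held in 23 of 28 loci annotated as DNA-binding, transcription factor or zinc finger. The share was 90.5% of all loci of the stretch, so the classes followed the stretch as a whole. Kinase loci were 4.08% of the stretch and 5.48% of all tested loci, ribosomal protein loci 3.40% and 2.12%. Of the 10 largest higher differences, 2 lay among the unplaced A09 loci, RPS1 (BnaA09g51670D), a plastid ribosomal protein, with 188 and 206 FPKM in ethanol and UN65 leaves against 0.287 and 0.0972 FPKM in water leaves, and a kinase (BnaA09g52250D) with 187 and 125 FPKM against 0.531 and 0.579 FPKM.

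Not every A09 locus was low in water leaves. PSAD-1 (BnaA09g01080D), a photosystem I subunit, kept 110 and 102 FPKM there, against 703 and 674 FPKM in ethanol and UN65 leaves. A locus of unknown function near the start (BnaA09g00150D) had 345 and 435 FPKM in ethanol and UN65 leaves, against 2.76 FPKM in water replicate 41 and 115 FPKM in water replicate 42. PSBO-1 (BnaA09g07840D), of the oxygen-evolving complex, lies past the end of the low run and had 627 and 735 FPKM in ethanol and UN65 leaves against 1140 and 566 FPKM in water leaves. The first locus of the stretch (BnaA09g00010D, a TRAF-like protein) had 0.0675 and 4.08 FPKM in ethanol and UN65 leaves against 0 and 0.634 FPKM in water leaves. At the last locus (BnaA09g07910D, unknown function), values were 6.37 and 2.98 FPKM against 7.28 and 16.9 FPKM in water leaves.

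When only the 2 groups were fitted, 90 loci passed the test (0.181% of those tested), 87 higher with ethanol and UN65 (0.175%) and 3 lower (0.00604%), and 78 of them lay in the A09 stretch and 5 among the unplaced A09 loci. Both water libraries were listed at 0 in 48 of the 90. The 7 placed elsewhere or unplaced were the short loci BnaC05g00360D, BnaC04g30070D and BnaCnng58020D, lower with ethanol and UN65, and 4 higher ones. Among the higher ones were the ATP citrate lyase subunit ACLB-2 (BnaAnng28310D, 37.7 and 42.4 FPKM in ethanol and UN65 leaves, 0.0864 and 0 FPKM in water leaves), a hydroxyproline-rich glycoprotein (BnaAnng38150D) and BnaC09g22440D, which has no annotation. The first of these and the glycoprotein locus are unplaced A genome loci. Their Arabidopsis matches, AT5G49460 and AT5G65660, are numbered close to matches of A09 stretch loci, AT5G49540 (BnaA09g03380D) and AT5G65670 (BnaA09g07160D). Whether these unplaced loci belong to the A09 stretch was not tested. The methyl jasmonate replicate that is low on A09 is not in that fit.

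The C genome copies of the A09 genes moved the other way. Pairs were formed from Arabidopsis genes with exactly 1 tested locus in the stretch and exactly 1 on C09, which gave 289 pairs. The median log2 difference was 2.44 for the A09 copy, -0.75 for the C09 copy and -0.01 for their summed level, and in 266 of the 289 pairs the A09 copy was higher and the C09 copy lower with ethanol and UN65. The A09 copy supplied a median of 46.0% and 45.5% of the pair's summed FPKM in ethanol and UN65 leaves, and 0% in both water libraries. In the 6 herbivory, UV-B and white light libraries it supplied 44.1% to 46.7%.

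LHCB2.3 shows these opposite differences in 1 gene. Its C09 copy (BnaC09g01520D) had 1011 and 1585 FPKM in ethanol and UN65 leaves against 4737 and 1994 FPKM in water leaves, and the log2 difference of the summed pair was 0.03. The C09 copy of XTH9 (BnaC09g00910D) had 122 and 93.1 FPKM in ethanol and UN65 leaves against 170 and 233 FPKM in water leaves, with a summed difference of 0.12. For GSH2 the C09 copy (BnaC09g03120D) had 78.8 and 84.9 FPKM in ethanol and UN65 leaves against 133 and 229 FPKM in water leaves, with a summed difference of -0.03. PSAN was less balanced: its C09 copy (BnaC09g06210D) had 265 and 208 FPKM in ethanol and UN65 leaves against 735 and 439 FPKM in water leaves, which left a summed difference of 1.13. The C09 locus among the 10 largest lower differences, BnaC09g04210D of unknown function, had 29.2 and 36.5 FPKM in ethanol and UN65 leaves against 107 and 151 FPKM in water leaves.

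**Figure D3:**
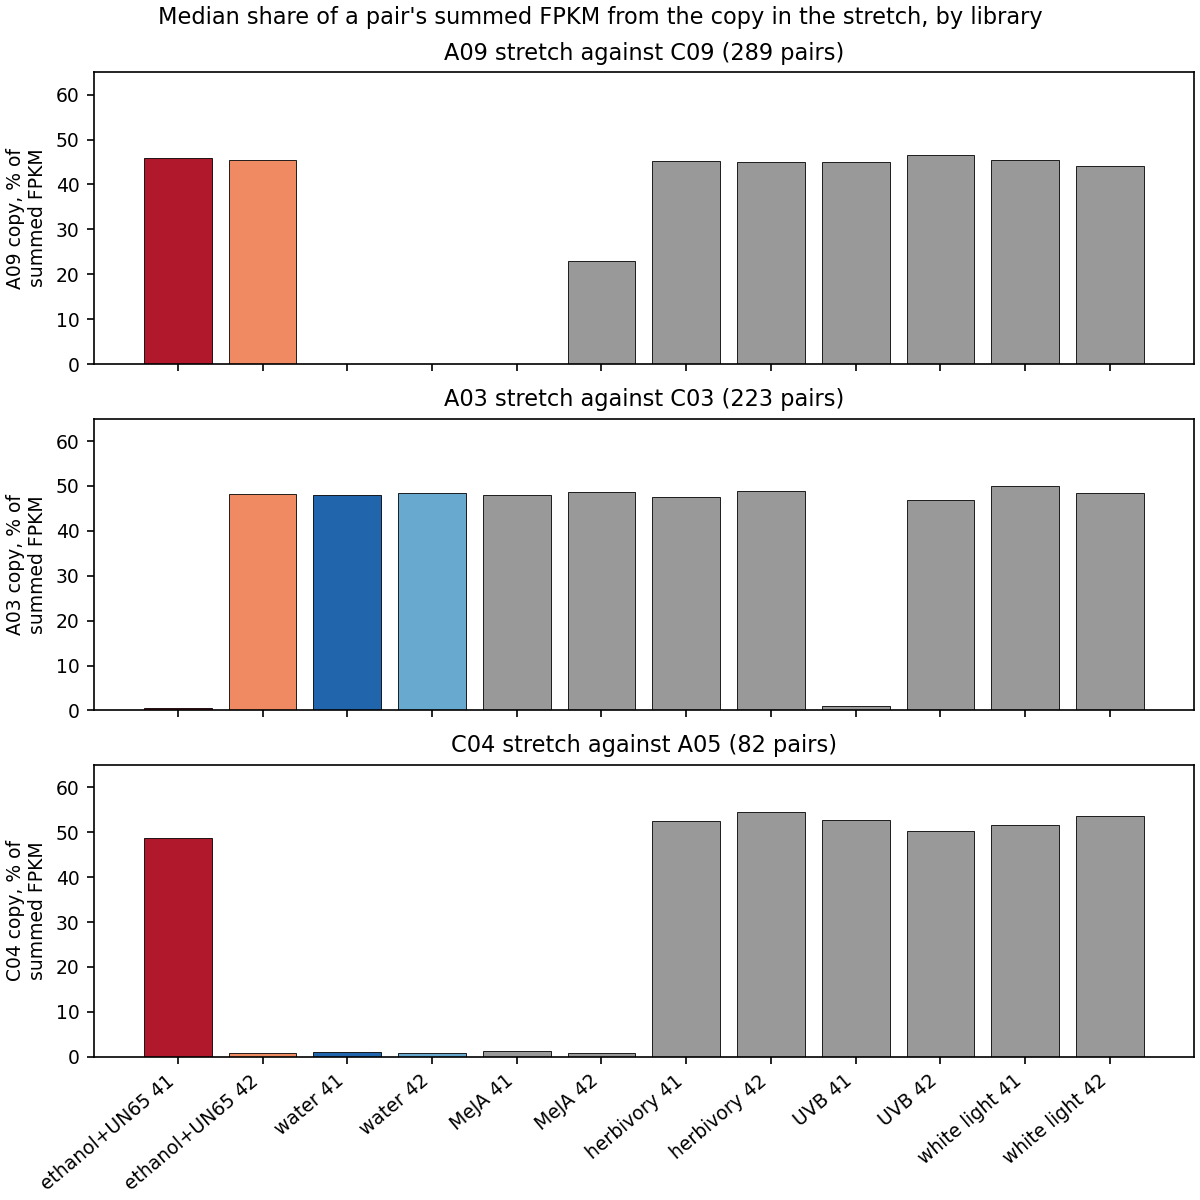
Median share of a pair's summed FPKM that came from the copy in the stretch (y axis, percent) in each of the 12 libraries (x axis), for A09 against C09, A03 against C03 and C04 against A05. Ethanol and UN65 bars are red, water bars blue and the other libraries grey. Shares are either near 50% or near 0%, except for methyl jasmonate replicate 42 on A09 at 22.9%.

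The stretch on A03 divided the ethanol and UN65 replicates from each other. It covered 311 tested loci (2717513 to 5066743, BnaA03g05980D to BnaA03g11290D) with a median log2 difference of -1.07. The median level relative to the 12 libraries was -1.89 in ethanol and UN65 replicate 41 and 0.05 in replicate 42, against 0.03 and 0.10 in the water libraries. UV-B replicate 41 was the only other low library, at -1.63. The low run of ethanol and UN65 replicate 41 was longer than the stretch, with 481 tested loci (1933276 to 5659384), and windows just outside the stretch still lay at -1.78 and -1.65 in that library. Without this library no stretch was found on A03.

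PSRP6 (BnaA03g06760D), a plastid ribosomal protein and the locus with the highest mean in the A03 stretch, had 0.646 and 171 FPKM in ethanol and UN65 leaves against 220 and 137 FPKM in water leaves. ADF4 (BnaA03g09180D), an actin depolymerising factor, had 0 and 78.2 FPKM in ethanol and UN65 leaves against 56.3 and 88.5 FPKM in water leaves, while its C03 copy (BnaC03g11510D) had 120 and 60.6 FPKM against 51.2 and 74.4 FPKM. The α-tubulin gene TUA5 (BnaA03g07740D) had 0.121 and 35.5 FPKM in ethanol and UN65 leaves and 40.95 and 41.5 FPKM in water leaves. The ubiquitin-conjugating enzyme gene UBC9 (BnaA03g12310D, A03, 5591785 to 5593248), listed among the 10 largest lower differences, lies inside the same low run and had 7.83 and 75.5 FPKM in ethanol and UN65 leaves against 108 and 119 FPKM in water leaves. A GTP-binding elongation factor (BnaA03g08920D) had 18.23 and 73.7 FPKM in ethanol and UN65 leaves against 41.3 and 60.4 FPKM in water leaves, and the methionine synthase gene ATCIMS (BnaA03g06790D) had 29.8 and 91.7 FPKM against 64.1 and 50.97 FPKM. In all of these ethanol and UN65 replicate 41 was the lowest of the 4 libraries. Over 223 pairs with C03, the A03 copy supplied 0.494% and 48.2% of the summed FPKM in ethanol and UN65 leaves against 48.1% and 48.4% in water leaves, and the summed level differed by a median of -0.04.

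The end loci of the A03 stretch stood at low levels, with log2 differences of -1.23 and -0.96 beside the stretch's median of -1.07. AAE5 (BnaA03g05980D), an acyl activating enzyme, had 0.476 and 5.52 FPKM in ethanol and UN65 leaves against 1.34 and 21.7 FPKM in water leaves. KCO1 (BnaA03g11290D), a potassium channel, had 0 and 1.77 FPKM in ethanol and UN65 leaves against 2.90 and 1.70 FPKM in water leaves. Neither passed the test, with adjusted p of 1 by limma.

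On C04 the reverse held for the ethanol and UN65 replicates. The stretch covered 111 tested loci (251053 to 1923145, BnaC04g00390D to BnaC04g02590D) with a median log2 difference of 1.09. Ethanol and UN65 replicate 41 lay at 0.34 and replicate 42 at -1.34, against -1.34 and -1.38 in the water libraries, and both methyl jasmonate libraries were low too, at -1.31 and -1.22. The 6 herbivory, UV-B and white light libraries lay between 0.19 and 0.66. All 5 low libraries came from sprayed plants, and ethanol and UN65 replicate 41 was the only sprayed library at the common level. The C04 copy supplied 48.8% and 0.755% of the summed FPKM of its 82 pairs with A05 in ethanol and UN65 leaves, against 0.987% and 0.836% in water leaves.

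PSI-P (BnaC04g00600D), a small photosystem I subunit, had 139 and 2.96 FPKM in ethanol and UN65 leaves against 7.91 and 2.28 FPKM in water leaves, while its A05 copy (BnaA05g01060D) had 84.5 and 271 FPKM against 524 and 174 FPKM. EXPA8 (BnaC04g01470D), an expansin that loosens cell walls, had 40.4 and 0 FPKM in ethanol and UN65 leaves and was listed at 0 in both water libraries. AGP16 (BnaC04g01120D), an arabinogalactan protein, overlapped between the groups, with 94.5 and 35.4 FPKM against 51.1 and 34.1 FPKM, and so did BnaC04g01200D with 20.8 and 19.97 FPKM against 18.4 and 23.1 FPKM. The end loci were a Rossmann-fold protein (BnaC04g00390D, 1.53 and 4.69 FPKM in ethanol and UN65 leaves, 2.49 and 4.07 FPKM in water leaves) and a bHLH factor (BnaC04g02590D, 7.39 and 0 FPKM against 0 in both). Without ethanol and UN65 replicate 41 no stretch was found on C04, and A09 was then the only one. Whether the plants or the libraries differ in these stretches for a reason other than the spray was not tested.

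Outside the stretches, their placed homoeologues and the unplaced A09 loci, 280 of 47874 tested loci (0.585%) were higher and 169 (0.353%) lower at an unadjusted p under 0.05 and at least 2-fold. These counts keep 8460 other unplaced loci, 81 of them higher and 56 lower, some of which may be copies of genes in the stretches. They also keep loci of the A03 low run that lie past the ends of the A03 stretch, UBC9 among them. Lower loci of C09 that were not counted as copies of A09 stretch genes are kept too. The 20 largest higher and 15 largest lower among placed loci with a mean log2 level of at least 3 are described here. This choice was made after the positions of the stretches were known, and none of the 20 passed adjustment. Among the higher loci, a GDSL lipase on C09 (BnaC09g16910D, 13740692 to 13742536) had 279 and 19.1 FPKM in ethanol and UN65 leaves against 0.173 and 3.95 FPKM in water leaves, with a log2 difference of 4.96 ± 1.101 and an adjusted p of 0.283 by limma. BGLU18 (BnaA06g01540D), a β-glucosidase of endoplasmic reticulum bodies, had 1190 and 494 FPKM in ethanol and UN65 leaves against 4.18 and 350.2 FPKM in water leaves. BGLU28 (BnaC04g49640D) had 22.3 and 20.3 FPKM in ethanol and UN65 leaves against 0 and 9.91 FPKM in water leaves. In all 3, ethanol and UN65 replicate 41 was the highest and water replicate 41 the lowest of the 4.

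Trypsin inhibitor TI1 on C04 (BnaC04g49050D, 47389093 to 47389867) had 351 and 181 FPKM in ethanol and UN65 leaves against 3.16 and 90.9 FPKM in water leaves, and its A04 copy (BnaA04g25170D) had 139 and 126 FPKM against 2.68 and 92.6 FPKM. Jacalin lectin 22 on A03 (BnaA03g18540D) had 124 and 103 FPKM in ethanol and UN65 leaves against 0.371 and 47.1 FPKM in water leaves, and on C03 (BnaC03g22030D) 99.7 and 75.4 FPKM against 0.332 and 30.2 FPKM. At these 4 loci water replicate 41 was far below the other 3 libraries on the log2 scale. TSA1 (BnaC06g05350D), a further endoplasmic reticulum body protein, had 137 and 86.9 FPKM in ethanol and UN65 leaves against 7.07 and 41.5 FPKM in water leaves. CHAT (BnaC05g47750D), which makes the leaf volatile hexenyl acetate, had 41.4 and 9.21 FPKM in ethanol and UN65 leaves against 0.717 and 5.47 FPKM in water leaves. Of the 280 higher loci, water replicate 41 was the lowest of all 12 libraries in 167, and ethanol and UN65 replicate 41 exceeded replicate 42 in 202.

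The rest of the 20 were the glutathione transferase GSTF9 (BnaA04g17910D, 158 and 100 FPKM in ethanol and UN65 leaves, 13.5 and 36.0 FPKM in water leaves), a nucleoside phosphatase (BnaC08g39780D), a phosphotriesterase (BnaA07g17130D), a DUF581 protein (BnaC03g69930D), a second GDSL lipase (BnaC06g06760D) and the jasmonate and glucosinolate genes given with their lists. Their log2 differences lay between 2.06 and 4.96. All 20 had non-overlapping groups because the choice required it.

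Among the 15 lower loci the largest differences were those of the short loci BnaC05g00360D and BnaC04g30070D, at -8.26 and -7.03. Differences of the other 13 were smaller, and their functions were mixed. BT1 (BnaA02g33650D), a BTB and TAZ domain protein, had 2.75 and 7.51 FPKM in ethanol and UN65 leaves against 15.1 and 32.4 FPKM in water leaves. A pair of loci for the cyclophilin ROC1 were both lower, with 17.7 and 40.3 FPKM in ethanol and UN65 leaves against 76.5 and 127 FPKM in water leaves on C07 (BnaC07g47630D) and 7.04 and 21.3 FPKM against 42.7 and 37.4 FPKM on A06 (BnaA06g37360D). HPD (BnaA10g04310D), an enzyme of tocopherol and plastoquinone synthesis, had 5.67 and 6.42 FPKM in ethanol and UN65 leaves against 9.13 and 67.5 FPKM in water leaves, and ETHE1 (BnaC03g69760D), a mitochondrial sulfur dioxygenase, had 32.5 and 32.1 FPKM against 45.6 and 237 FPKM. In HPD and ETHE1 water replicate 42 was the high library and water replicate 41 lay close to the ethanol and UN65 leaves. A DUF506 protein (BnaC08g36260D) had 3.80 and 6.79 FPKM in ethanol and UN65 leaves against 16.6 and 50.2 FPKM in water leaves, and BnaA03g16460D, without annotation, had 17.9 and 9.10 FPKM against 60.2 and 48.8 FPKM.

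Unplaced C genome loci, 3 in number, complete the 10 largest lower differences. A kinase (BnaCnng02070D) had 33.3 and 15.9 FPKM in ethanol and UN65 leaves against 106 and 87.5 FPKM in water leaves. GBF2 (BnaCnng01910D), a bZIP factor that binds G-boxes, had 16.7 and 9.49 FPKM in ethanol and UN65 leaves against 57.9 and 49.6 FPKM in water leaves. A GRAM domain protein (BnaCnng01450D) had 2.90 and 3.18 FPKM in ethanol and UN65 leaves against 16.6 and 13.8 FPKM in water leaves. In these 3 every ethanol and UN65 library lay below every water library, as the choice required, with adjusted p values by limma of 0.318, 0.298 and 0.464. Their Arabidopsis matches, AT4G01330, AT4G01120 and AT4G01600, are numbered close to AT4G01150, the match of BnaA09g00150D near the start of the A09 stretch. Whether they are C genome copies of genes from that part of A09 was not tested.

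**Figure D4:**
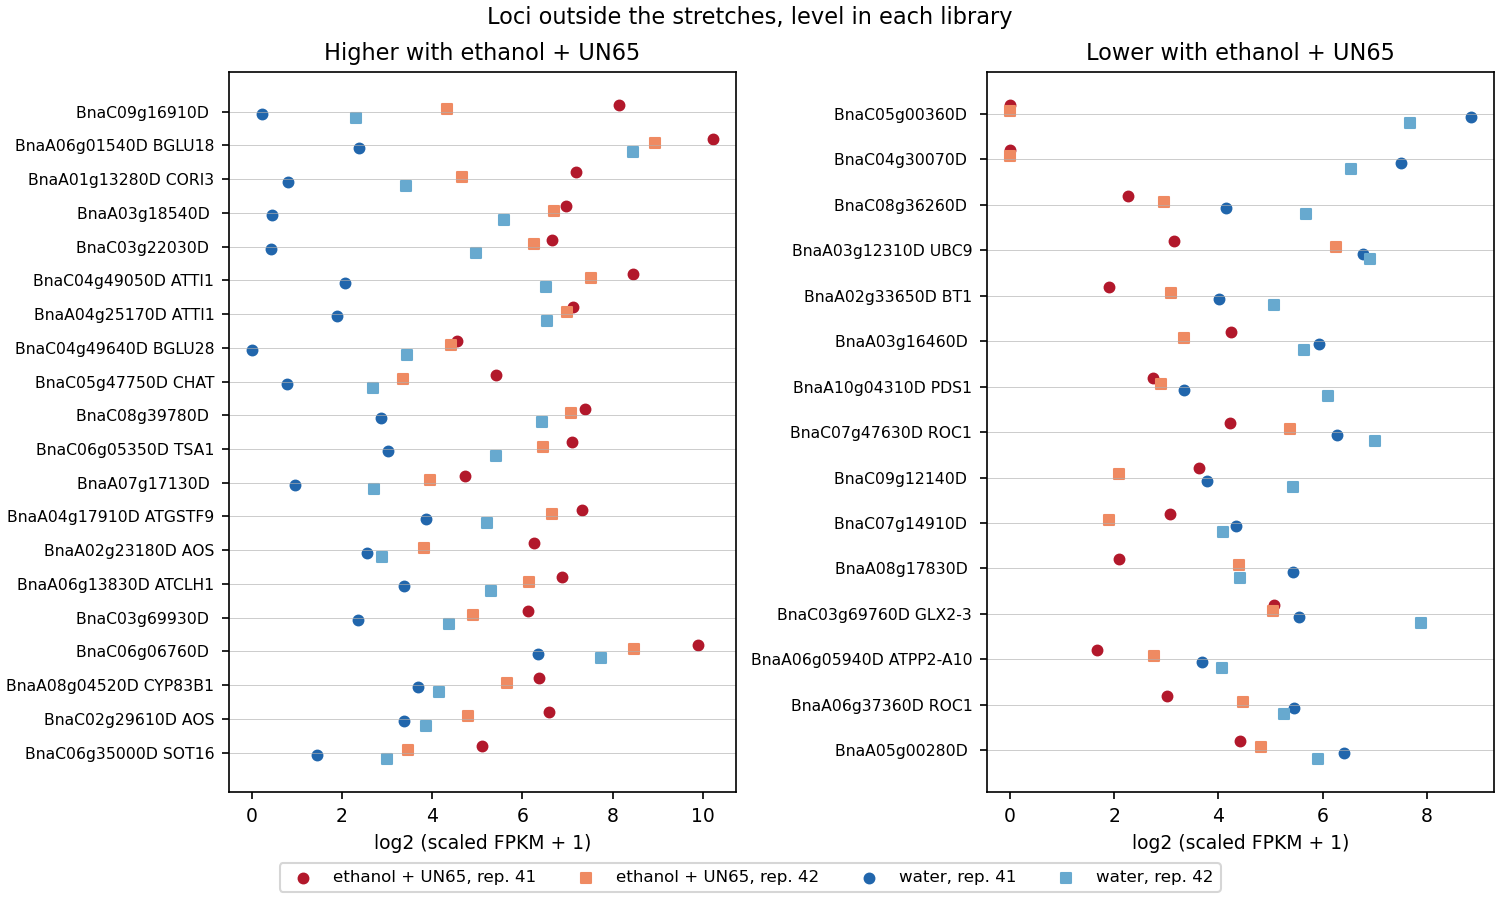
Level of the 20 higher and 15 lower loci outside the stretches (y axis, locus and gene) as log2(scaled FPKM + 1) (x axis) in each of the 4 libraries, ethanol and UN65 in red tones and water in blue tones, circles for replicate 41 and squares for replicate 42. UBC9, among the lower loci, lies past the end of the A03 stretch but inside the A03 low run of ethanol and UN65 replicate 41. In many of the higher loci water replicate 41 lies far below the other 3, which is seen in TI1 at 3.16 FPKM against 90.9 FPKM in water replicate 42.

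No gene list held a called locus, and lists are described by their medians and counts beside those of all tested loci, whose median log2 difference was 0.01. Jasmonate response genes were mostly higher with ethanol and UN65: 78 of 84 tested loci had a positive difference, with a median of 0.79, and 47 had non-overlapping groups in that direction and 0 in the other, against 15.6% and 12.9% of all tested loci. Of the 84, 9 had an unadjusted p under 0.05, all higher (1.84% of all tested loci): CORI3, CLH1 and 7 loci for the repressors JAZ1, JAZ2 and JAZ6. CORI3 (BnaA01g13280D, A01, 6719596 to 6722066), a coronatine-induced cystine lyase, had 144 and 24.4 FPKM in ethanol and UN65 leaves against 0.73 and 9.69 FPKM in water leaves, with a log2 difference of 3.82 ± 1.01 and an adjusted p of 0.505 by limma. JAZ2 on C06 (BnaC06g22690D) had 80.6 and 47.2 FPKM in ethanol and UN65 leaves against 9.23 and 28.9 FPKM in water leaves. JAZ6 on C06 (BnaC06g33640D) had 41.9 and 31.5 FPKM in ethanol and UN65 leaves against 10.5 and 20.3 FPKM in water leaves. CLH1 (BnaA06g13830D), a chlorophyllase induced by jasmonate, had 116 and 69.8 FPKM in ethanol and UN65 leaves against 9.43 and 38.4 FPKM in water leaves.

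The 4 libraries formed a series on this list rather than 2 groups. Relative to the 12-library median, ethanol and UN65 libraries lay at 0.14 and -0.60 and water libraries at -1.45 and -0.83, so ethanol and UN65 replicate 42 lay nearer to water replicate 42 than to its own replicate. Methyl jasmonate libraries lay at 1.63 and 0.98, herbivory libraries at 0.58 and 0.57, and white light libraries at 0.39 and -0.36. UV-B libraries lay at -0.39 and 0.14. The water libraries were the lowest of the 12 on this list, and both ethanol and UN65 libraries lay below the higher white light library. The median difference was 0.36 without ethanol and UN65 replicate 41 and 1.26 without replicate 42, 0.54 without water replicate 41 and 1.05 without water replicate 42. Water replicate 41 was the lowest of the 12 libraries at 67 of the 84 loci.

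Jasmonate biosynthesis genes were also mostly higher. Of 52 tested loci 46 had a positive difference, with a median of 0.72. Groups did not overlap in 25 loci (48.1%) in that direction and 1 (1.92%) in the other, against 15.6% and 12.9% of all tested loci. The AOS locus on A02 (BnaA02g23180D, 16196603 to 16198192) had 75.4 and 13.1 FPKM in ethanol and UN65 leaves against 4.89 and 6.35 FPKM in water leaves, and that on C02 (BnaC02g29610D) had 94.9 and 26.9 FPKM against 9.39 and 13.5 FPKM. OPCL1 (BnaA08g21760D), a peroxisomal CoA ligase of the pathway, had 30.4 and 12.1 FPKM in ethanol and UN65 leaves against 2.302 and 11.3 FPKM in water leaves. LOX2 (BnaA07g19600D) had 427 and 247 FPKM in ethanol and UN65 leaves against 134 and 143 FPKM in water leaves. Leaving out ethanol and UN65 replicate 41 lowered the median to 0.30, and leaving out water replicate 41 lowered it to 0.40. The jasmonate and ethylene branch of defensins and chitinases had a median of 0.16 over 24 loci. Of these, 9 had non-overlapping groups, all higher (37.5%, against 15.6% of all tested loci). Without water replicate 41 its median was 0.03 and without water replicate 42 it was 0.54. Its locus with the smallest p, the chitinase CHIB (BnaC03g37600D), had 35.4 and 14.4 FPKM in ethanol and UN65 leaves against 0.806 and 10.1 FPKM in water leaves.

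Glucosinolate biosynthesis genes had a median log2 difference of 0.47 over 62 loci, 44 of them positive. Groups did not overlap in 27 (43.5%) in that direction and 2 (3.23%) in the other, against 15.6% and 12.9% of all tested loci. Of the 62, 10 had an unadjusted p under 0.05, all higher (1.84% of all tested loci). All 10 were loci for CYP79B2, CYP83B1, CYP81F4 or SOT16. CYP79B2, which starts indole glucosinolate synthesis from tryptophan, had 38.9 and 7.48 FPKM in ethanol and UN65 leaves against 0.66 and 2.41 FPKM in water leaves at its unplaced C07 locus (BnaC07g51280D). CYP83B1, the next enzyme, had 81.1 and 49.4 FPKM in ethanol and UN65 leaves against 11.9 and 16.8 FPKM in water leaves on A08 (BnaA08g04520D) and 70.4 and 41.8 FPKM against 11.8 and 18.3 FPKM on C08 (BnaC08g05690D). SOT16, the sulfotransferase of the last core step, had 33.4 and 10.02 FPKM in ethanol and UN65 leaves against 1.73 and 7.02 FPKM in water leaves on C06 (BnaC06g35000D). CYP81F4 (BnaCnng74800D), which modifies the indole ring, had 5.47 and 3.30 FPKM in ethanol and UN65 leaves against 0 and 0.547 FPKM in water leaves, with an adjusted p of 0.381 by limma. Unlike the jasmonate lists, the median here lay between 0.37 and 0.64 whichever library was left out. Ethanol and UN65 libraries lay at -0.07 and -0.54 relative to the 12-library median, and water libraries at -0.65 and -1.09. White light libraries lay at 1.03 and -0.23, herbivory at 0.59 and 0.48, UV-B at -0.36 and -0.43 and methyl jasmonate at 0.96 and 1.55. Here too the water libraries were the lowest of the 12.

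**Figure D5:**
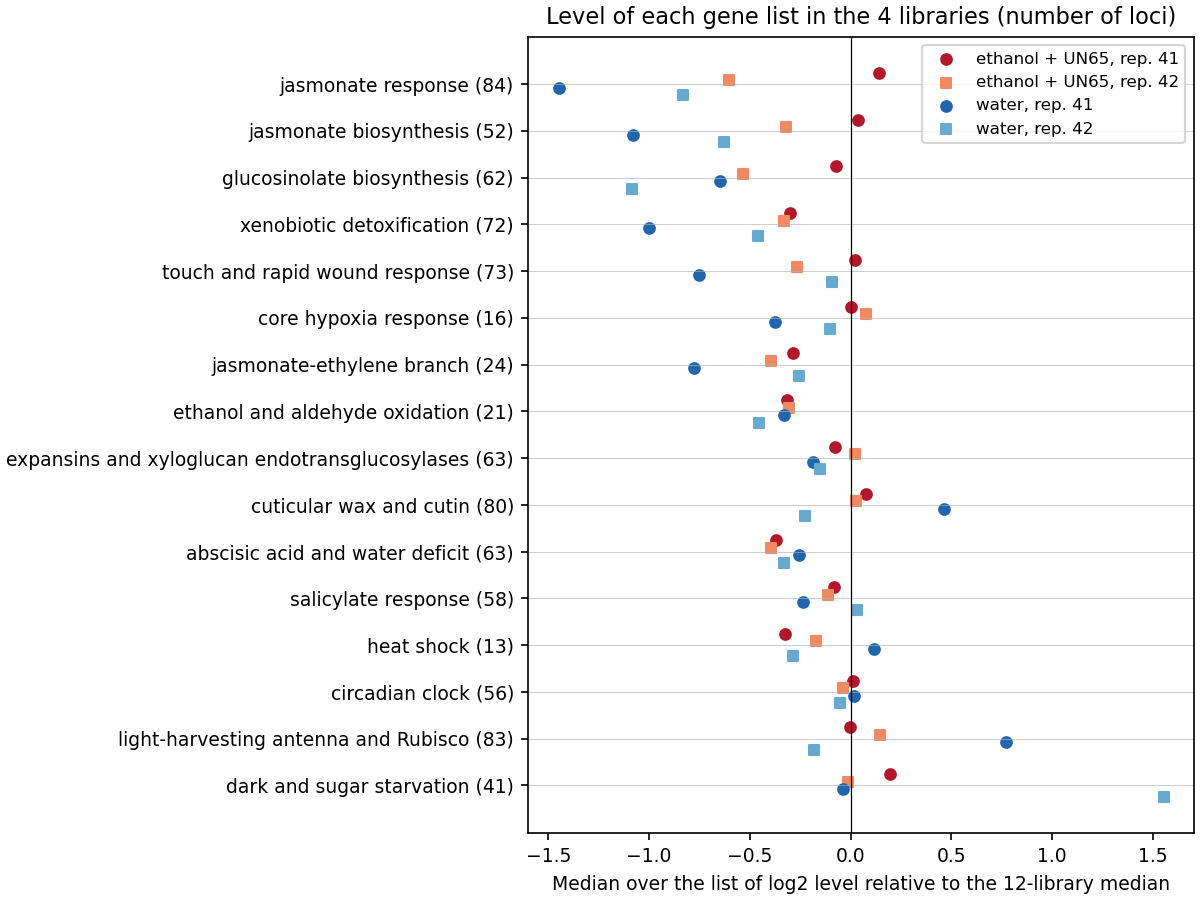
Median over the loci of each list of the log2 level relative to the 12-library median (x axis) for 16 lists (y axis, number of tested loci), with ethanol and UN65 in red tones and water in blue tones, circles for replicate 41 and squares for replicate 42. Both water libraries lie left of both ethanol and UN65 libraries on the jasmonate response, jasmonate biosynthesis and glucosinolate lists. The same order holds on the detoxification, core hypoxia, ethanol and aldehyde oxidation, and expansin lists. Water replicate 41 lies alone to the right on the antenna list at 0.77, and water replicate 42 lies alone to the right on the starvation list at 1.55.

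Genes that oxidise ethanol and acetaldehyde showed little difference, with a median of 0.12 over 21 loci, 13 positive, and 0 at an unadjusted p under 0.05. Groups did not overlap in 6 upwards (28.6%) and 3 downwards (14.3%), against 15.6% and 12.9% of all tested loci. ADH1 on A07 (BnaA07g33310D, 22883612 to 22885209), the alcohol dehydrogenase gene with the smallest p of the list, had 2.49 and 2.62 FPKM in ethanol and UN65 leaves against 1.08 and 1.04 FPKM in water leaves, with a log2 difference of 0.79 ± 0.37. Its C06 copy (BnaC06g37860D) had 0.976 and 1.63 FPKM in ethanol and UN65 leaves against 0.589 and 0.499 FPKM in water leaves. Both copies stood higher in both ethanol and UN65 libraries, at low levels. The mitochondrial aldehyde dehydrogenase ALDH2B7 on C08 (BnaC08g06430D) went the other way, with 57.1 and 50.7 FPKM in ethanol and UN65 leaves against 85.6 and 87.3 FPKM in water leaves. ALDH2B4 (BnaCnng12150D) overlapped, with 77.0 and 87.7 FPKM in ethanol and UN65 leaves against 93.0 and 86.1 FPKM in water leaves. The list's median was -0.01 without ethanol and UN65 replicate 41 and also without water replicate 42.

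Detoxification genes of glutathione transferase and glycosyltransferase families had a median of 0.25 over 72 loci. Groups did not overlap in 19 upwards (26.4%) and 3 downwards (4.17%), against 15.6% and 12.9% of all tested loci. GSTU25 on C08 (BnaC08g37910D) had 9.76 and 5.63 FPKM in ethanol and UN65 leaves against 0.253 and 1.39 FPKM in water leaves, and on A09 (BnaA09g45080D) 2.56 and 2.02 FPKM against 0 and 0.619 FPKM. Without ethanol and UN65 replicate 42 the median was 0.11 and without water replicate 42 it was 0.42. Core hypoxia genes had a median of 0.17 over 16 loci. Groups did not overlap in 7 upwards (43.8%) and 3 downwards (18.8%), against the same shares of all tested loci. PCO2 (BnaA04g09690D), a plant cysteine oxidase, led the list. It had 1.58 and 1.42 FPKM in ethanol and UN65 leaves against 0.391 and 0.397 FPKM in water leaves. Touch and rapid wound genes had a median of 0.23 over 73 loci, which was 0.10 without water replicate 41 and 0.62 without water replicate 42. Their groups did not overlap in 22 loci upwards (30.1%) and 6 downwards (8.22%). WRKY18 on C07 (BnaC07g43490D), a transcription factor of defence, had 10.2 and 7.08 FPKM in ethanol and UN65 leaves against 1.45 and 4.84 FPKM in water leaves.

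The next lists separated the water replicates from each other. Antenna and Rubisco genes had a median of -0.28 over 83 loci, 68 of them negative. Non-overlapping groups were found in 5 loci downwards (6.02%) and 1 upwards. Both shares were smaller than those of all tested loci, 12.9% downwards and 15.6% upwards. Ethanol and UN65 libraries lay near 0 and at 0.14 and water libraries at 0.77 and -0.18, and the median was 0.28 without water replicate 41 and -0.76 without water replicate 42. Rubisco activase on C03 (BnaC03g22220D) had 415 and 703 FPKM in ethanol and UN65 leaves against 2068 and 560.3 FPKM in water leaves. Dark and sugar starvation genes had a median of -0.53 over 41 loci, 36 negative and 8 non-overlapping downwards (19.5%, against 12.9% of all tested loci). Ethanol and UN65 libraries lay at 0.20 and -0.01, water libraries at -0.04 and 1.55, and the median was 0.31 without water replicate 42 and -1.25 without water replicate 41. ETFQO (BnaA05g03290D), of mitochondrial amino acid breakdown, had 4.47 and 4.06 FPKM in ethanol and UN65 leaves against 5.47 and 22.3 FPKM in water leaves.

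The remaining lists had medians nearer to 0, and some of these turned sign with 1 library left out. Cuticular wax and cutin genes, which a wetting agent meets first, had a median of -0.01 over 80 loci. Groups did not overlap in 10 upwards (12.5%) and 4 downwards (5%), against 15.6% and 12.9% of all tested loci. The median of these genes was 0.25 without water replicate 41 and -0.29 without water replicate 42. Their smallest p belonged to MYB96 in the A09 stretch (BnaA09g06090D), a regulator of wax synthesis, with 3.81 and 1.67 FPKM in ethanol and UN65 leaves and 0 in both water libraries. Abscisic acid and water deficit genes had a median of -0.03 over 63 loci, salicylate genes -0.06 over 58, heat shock genes -0.13 over 13 and clock genes -0.14 over 56. In the heat shock list, groups did not overlap in 5 loci downwards (38.5%) and 0 upwards, against 12.9% and 15.6% of all tested loci. The salicylate locus with the smallest p, CBP60G (BnaA09g04040D), also lies in the A09 stretch, with 2.88 and 4.65 FPKM in ethanol and UN65 leaves and 0 in both water libraries. Among clock genes ELF4 on A04 (BnaA04g22640D), an evening gene, had 5.20 and 8.45 FPKM in ethanol and UN65 leaves against 1.305 and 1.34 FPKM in water leaves. Among heat shock genes MBF1C (BnaC07g07150D) had 0.524 and 0.458 FPKM in ethanol and UN65 leaves against 3.08 and 1.24 FPKM in water leaves. CYP707A3 (BnaCnng57040D), which breaks down abscisic acid, had 2.78 and 1.36 FPKM in ethanol and UN65 leaves against 0.785 and 0.94 FPKM in water leaves. None of these passed adjustment. Expansin and xyloglucan endotransglucosylase genes had a median of 0.09 over 63 loci, and their smallest p was that of XTH9 on A09. Their groups did not overlap in 16 loci upwards (25.4%) and 7 downwards (11.1%).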

How the data were processed

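Leaf RNA was made into TruSeq libraries and sequenced. The authors aligned reads with TopHat2 and deposited FPKM from Cufflinks 2.2.1 and Cuffdiff. The *B. napus* build is not given in the sources used here. The ethanol and UN65 columns came from another Cuffdiff run than the water columns. The methyl jasmonate mean of the 2 runs differed by a ratio of 0.982 to 0.986 at 43571 loci, a constant that scaling removes. Columns of the authors' own fold changes and p-values were not used, nor were 22 columns of libraries without a sample here. Each column was scaled by the median, over 46905 loci above 0 in all 12 libraries, of its ratio to the average of the libraries. A pseudocount of 1 was added on the log2 scale, so fold changes of low loci are understated. A minimum of 1 FPKM in 2 or more libraries was required, and the model (limma 3.58.1 in R 4.3.3, with trend) took in all 12 libraries, with Benjamini-Hochberg adjustment over 49701 loci. The design reaches no exact permutation p below 0.333 with 2 against 2. Starts in the tables count from 0, and 1 was added. The fit was tested on simulated data.

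Named loci were every called locus, the 10 largest differences each way (mean log2 level of at least 3, p under 0.05, groups not overlapping), the smallest p of each list, the ends and 3 highest means of each stretch, and the 5 smallest p of the 2-group fit. Other loci were chosen after their values were seen. A locus of the 2-group fit is not reported here. Members, lists and alternatives were chosen with earlier results of these data known. Copies of a gene are similar, and how reads that match several copies were divided is not given in the sources used here. Alternatives covered the filter, the samples fitted, a replicate block, the scaling, the pseudocount and each library left out. Numbers 41 and 42 were not treated as pairing the samples in the main fit. Correlations of replicate differences between groups lay from -0.37 to 0.41, with 4 of 15 over 0.1. Between the ethanol and UN65 group and the water group the correlation was 0.056.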

Additional observations from a re-analysis of the deposited data

How the results depend on the processing

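The count of called loci, 2 in the fit of all libraries, was 9 with no filter on low values, 0 with 1 FPKM in at least 4 libraries, 90 with the 2 groups fitted alone, 0 with the 3 sprayed groups fitted alone, 5 with columns scaled to equal totals, 1 with a pseudocount of 0.1 or 0.5, 1 outside the stretches and 1 to 25 with a library left out (25 without ethanol and UN65 replicate 42, 11 without water replicate 42, 1 without either replicate 41). Choices made after the data were seen gave 0 for loci of 200 bases or more and 73 for the 2 groups alone with scaling over the tested loci. With the replicate block the count was 2. In the fits where no locus passed, 884 and 1013 loci had an unadjusted p under 0.05 and at least a 2-fold difference for the 4-library filter and the 3 sprayed groups, and 927 for loci of 200 bases or more. The 936 outermost loci became 866 to 1676 with a library left out, and 973 with the replicate block. Without water replicate 41 they were 524 higher and 681 lower, so the excess of higher loci was turned round by that library. Scaling to equal totals moved the median of all loci by 0.10 and left 823 higher and 178 lower, against 696 and 240. The 3 stretches became 5 in windows of 31 loci and 1 to 4 with a library left out.

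List medians moved as follows. A pseudocount of 0.1 gave 1.32 for jasmonate biosynthesis, 0.55 for the jasmonate and ethylene branch, 0.41 for hypoxia and -0.44 for heat shock. With 1 locus per Arabidopsis gene the medians were 0.32 for hypoxia, -0.43 for the clock and -0.19 for expansins. No filter gave 0.00 for the clock, and equal totals gave 0.22 for ethanol and aldehyde oxidation. With a library left out, medians ranged over 0.36 to 1.26 for jasmonate response, 0.30 to 1.03 for jasmonate biosynthesis, 0.027 to 0.54 for the jasmonate and ethylene branch, -0.013 to 0.17 for ethanol oxidation, 0.058 to 0.36 for hypoxia, -0.25 to 0.15 for heat shock and -1.25 to 0.31 for starvation, and likewise over 0.10 to 0.62 for touch, -0.76 to 0.28 for antenna genes, -0.29 to 0.25 for wax, -0.14 to 0.14 for salicylate and -0.10 to 0.32 for expansins. No call was made on any list. Where a group was left with 1 library, that library was assumed to vary like the others.

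Named loci whose difference changed sign with a library left out, none of them called, ranged over -2.87 to 0.41 for BnaA03g05980D, -0.92 to 0.67 for BnaA03g06790D, -1.41 to 0.55 for BnaA03g08920D, -0.26 to 1.99 for BnaA09g00010D, -0.75 to 0.26 for BnaA09g07840D, -0.73 to 0.44 for BnaC04g00390D, -0.45 to 4.70 for BnaC04g00600D, -0.23 to 1.16 for BnaC04g01120D, -0.17 to 0.14 for BnaC04g01200D and -0.14 to 0.60 for BnaC08g11970D. Equal totals gave 0.00013 for BnaA03g06790D and 0.10 for BnaC04g01200D.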
